A study of Arabidopsis thaliana with 9 samples.

Results

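The lignin monomer enzymes described here are 7 Arabidopsis thaliana genes, HCT (AT5G48930), C3'H (AT2G40890), CCOAOMT1 (AT4G34050), COMT1 (AT5G54160), CCR1 (AT1G15950), CAD4 (AT3G19450) and CAD5 (AT4G34230). They were chosen by locus identifier, and all 7 were listed in every library, out of 24640 genes listed in the series. RNA sequencing of poly(A) RNA from whole seedlings gave 9 libraries, 3 per genotype. The genotypes were bbx202122, mutated in the B-box genes BBX20, BBX21 and BBX22; hy5, mutated in the bZIP gene HY5; and wild type (WT) of ecotype Col-0. Seeds of every genotype were kept cold (4 °C) and dark for 2 days, received white light for 2 h and then 22 h of darkness, and the seedlings grew for 3 days at 22 °C in red light of 80 µmol per square metre and second. They were 4 days old at harvest. Neither the mutant alleles nor the mutants' ecotype is named in the labels.

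Monolignols, the alcohols that are joined into lignin in the cell wall, are built in the cytosol from p-coumaroyl-CoA, the product of the general phenylpropanoid pathway. HCT moves the coumaroyl group onto shikimate, and the cytochrome P450 C3'H hydroxylates the ring of that ester. CCOAOMT1 and COMT1 add methyl groups to the ring hydroxyls, CCR1 reduces the CoA ester to an aldehyde, and the cinnamyl alcohol dehydrogenases CAD4 and CAD5 reduce the aldehyde to the alcohol. In seedlings lignin is found mainly in the xylem and in the Casparian strip of the root endodermis. HY5 promotes seedling development in light, and the B-box proteins mutated here act with it.

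AC elements are short promoter sequences, bound by R2R3 MYB proteins, that are known from genes of the phenylpropanoid pathway. AC-I (ACCTACC), AC-II (ACCAACC) and AC-III (ACCTAAC) were searched on both strands in the 250 bases before the annotated start of each gene. At least 1 of the 3 was found in 5 of the 7 genes, against 6.12% of 27443 promoters of protein-coding genes. AC-II was in 4 of the 7 genes, against 2.69% of promoters, AC-I in 1 gene, against 1.16%, and AC-III in 0 genes, against 2.46%. The 5 matches are shown with up to 10 bases on either side, 5′ to 3′ on the strand of the gene, with the element in capitals and its first base counted upstream from the gene start. They are from the RefSeq genome sequence of build TAIR10.1. The 250-base window of CCR1, alone among the 7, also holds exon sequence of another gene, AT1G15940. The HCT match began at base 90 (chr5:19838309-19838335, minus strand), that of C3'H at base 22 (chr2:17060658-17060684, minus strand), that of CCOAOMT1 at base 213 (chr4:16310186-16310212, plus strand), that of CCR1 at base 14 (chr1:5478579-5478602, plus strand) and that of CAD5 at base 238 (chr4:16389162-16389188, minus strand).
HCT: gaacgggtttACCAACCccggatagaa
C3'H: aaatcggttcACCAACCccctccctaa
CCOAOMT1: caagagattcACCTACCacggtacact
CCR1: ttcttcttccACCAACCcctcttt
CAD5: ttgtttgttcACCAACCcccgtggacc

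CAD4 and CAD5 encode the same enzyme activity, and their transcripts differed most among the 7 genes in how they stood in the mutants, so both 250-base upstream sequences are shown. The CAD4 sequence is chr3:6744127-6744376, plus strand, and the CAD5 sequence chr4:16388941-16389190, minus strand (TAIR10.1, RefSeq). Capitals mark the AC-II element and the ACGT core, the tetranucleotide at the centre of the sites that bZIP proteins such as HY5 bind. The CAD4 sequence held the ACGT core at 1 place and no AC element, and the CAD5 sequence held the ACGT core at 3 places and 1 AC-II element.
CAD4: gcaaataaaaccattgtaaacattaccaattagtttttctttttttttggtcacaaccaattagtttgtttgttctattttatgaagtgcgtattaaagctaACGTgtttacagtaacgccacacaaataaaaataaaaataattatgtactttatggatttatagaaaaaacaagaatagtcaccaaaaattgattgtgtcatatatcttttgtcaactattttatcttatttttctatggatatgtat
CAD5: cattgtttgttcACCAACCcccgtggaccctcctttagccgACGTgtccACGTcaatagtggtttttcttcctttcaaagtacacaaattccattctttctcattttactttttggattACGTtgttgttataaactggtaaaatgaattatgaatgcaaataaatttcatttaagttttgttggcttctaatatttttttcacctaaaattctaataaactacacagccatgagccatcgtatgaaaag
Among the 7 genes the ACGT core was in 3 (CCOAOMT1, CAD4 and CAD5), against 44.1% of promoters. The G-box CACGTG, which contains the ACGT core, was in 0 of the 7 genes, against 6.49% of promoters. Within 500 bases it was in HCT (first base at 309) and CAD5 (first base at 301), against 9.35% of promoters. In 1000 bases any AC element was in 6 of the 7 genes, against 22.1% of promoters. A match says that the letters are present, and its absence that they are not in that window.

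The 7 genes lie on all 5 nuclear chromosomes (TAIR10.1). HCT spans bases 19836299 to 19838235 of chromosome 5 (minus strand, 2 exons) and COMT1 bases 21981902 to 21984399 of the same chromosome (plus strand, 4 exons). C3'H, under the symbol CYP98A3 in the annotation, spans bases 17058053 to 17060652 of chromosome 2 (minus strand, 3 exons). CCR1 spans bases 5478603 to 5482180 of chromosome 1 (plus strand, 4 to 6 exons) and CAD4 bases 6744377 to 6747238 of chromosome 3 (plus strand, 5 exons). CCOAOMT1 (bases 16310409 to 16312308, plus strand, 3 to 4 exons) and CAD5 (bases 16386631 to 16388940, minus strand, 5 exons) are both on chromosome 4, 74.3 kb apart with 21 protein-coding genes between them. HCT, CCOAOMT1, COMT1, CAD4 and CAD5 shared no 50-base stretch with an annotated mRNA of another gene. At that length their reads can be told apart from those of other mRNAs, and RNAs of other kinds were not compared.

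C3'H and CCR1 overlap genes on the opposite strand, and the labels do not say that strand was used in counting. C3'H overlaps AT2G40880 (cystatin A) and AT2G09205, and CCR1 overlaps AT1G15960 (NRAMP metal ion transporter 6) and AT1G05213. Among annotated mRNAs, the only ones compared, C3'H shared 1.14% of its 50-base stretches with AT2G40880. CCR1 shared 21.4% with AT1G15960. AT1G15960 was at 12.3 ± 1.7 CPM (counts scaled to library size) in bbx202122, 11.6 ± 0.59 CPM in hy5 and 13.7 ± 1.5 CPM in WT (SD, n = 3 each), while CCR1 averaged 72.8 CPM in bbx202122, 72.5 CPM in hy5 and 88.2 CPM in WT. AT1G15960 was not called in bbx202122 against WT (log2 fold change -0.16 ± 0.11) or in hy5 against WT (-0.25 ± 0.11), with edgeR adjusted p = 0.35 and 0.083, and the part of its reads in the CCR1 values was not tested.

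Library totals were 21577036 to 22778710 expected counts, and the 7 genes had 1049 to 11185 expected counts each per library. Together they took 0.0998 to 0.1121% of the counts in bbx202122, 0.0907 to 0.0946% in hy5 and 0.1346 to 0.1385% in WT. The transcripts of the mutated genes went with the labels for BBX21 (log2 fold change -1.97 in bbx202122 against WT), BBX22 (-3.42) and HY5 (-1.03 in hy5 against WT). BBX20 was at -0.16 in bbx202122 against WT (adjusted p = 0.48), and its transcript therefore gives no check of that mutation. HY5 was also lower in bbx202122 (-1.40), with 5.93 to 6.84 CPM there and 6.5 to 9.1 CPM in hy5. In bbx202122 against hy5 it was at -0.38 (edgeR adjusted p = 0.049), so a low HY5 transcript is not particular to hy5. In hy5 BBX20 was lower (-1.09), BBX21 higher (0.45) and BBX22 not called (0.05, adjusted p = 0.6). Nothing in the labels states that the 3 libraries of a genotype came from separately grown plates, and the tests therefore cover only library-to-library spread, which may be technical.

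Levels of different genes are compared in FPKM, fragment counts scaled to transcript length and library size. Averaged over all 9 libraries, CCOAOMT1, the highest of the 7, stood 9.63-fold above CAD5, the lowest. The WT order was CCOAOMT1, COMT1, HCT, CAD4, CCR1, C3'H and CAD5, and no neighbours in it overlapped between libraries. CAD5 lay above 84.6% and CCOAOMT1 above 99.3% of the 23784 genes listed in WT, with the others in between. The order was the same in bbx202122, again with no overlap between neighbours. In hy5 CCR1 and CAD4 overlapped each other, and CAD5 stood above C3'H with no overlap.

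Against WT, most of the 7 transcripts were lower in both mutants. A gene is called where its edgeR quasi-likelihood test, Benjamini-Hochberg adjusted over all genes, gave an adjusted p under 0.05. In bbx202122 against WT 5 of the 7 genes fell, 0 rose and 2 were not called, where 8.27% of the 20751 genes tested were called lower and 8.62% higher (16.9% in either direction). In hy5 against WT 6 of the 7 fell and 1, CAD5, rose, where 19.8% of genes were called lower and 19.6% higher (39.5% in either direction). The median log2 fold change of the 7 was -0.28 in both comparisons, beside 0.01 and 0.00 over all genes tested. Both comparisons use the same WT libraries. Between the mutants 3 of the 7 were higher and 1 was lower in bbx202122 than in hy5, where 12.1% of genes were called higher and 10.9% lower (23.0% in either direction). The libraries of bbx202122 and WT did not overlap for 5 of the 7 genes, all lower in bbx202122, where 32.5% of genes had no overlap in CPM (16.7% higher, 15.8% lower). For hy5 and WT they did not overlap for 7 of the 7, 6 lower and 1 higher in hy5, where 51.6% of genes had no overlap (25.7% higher, 25.9% lower). For bbx202122 and hy5 they did not overlap for 4 of the 7, 3 higher and 1 lower in bbx202122, where 38.7% of genes had no overlap (20.3% higher, 18.4% lower). In whole seedlings, fewer cells of a type and less RNA per cell cannot be told apart.

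**Figure D1:**
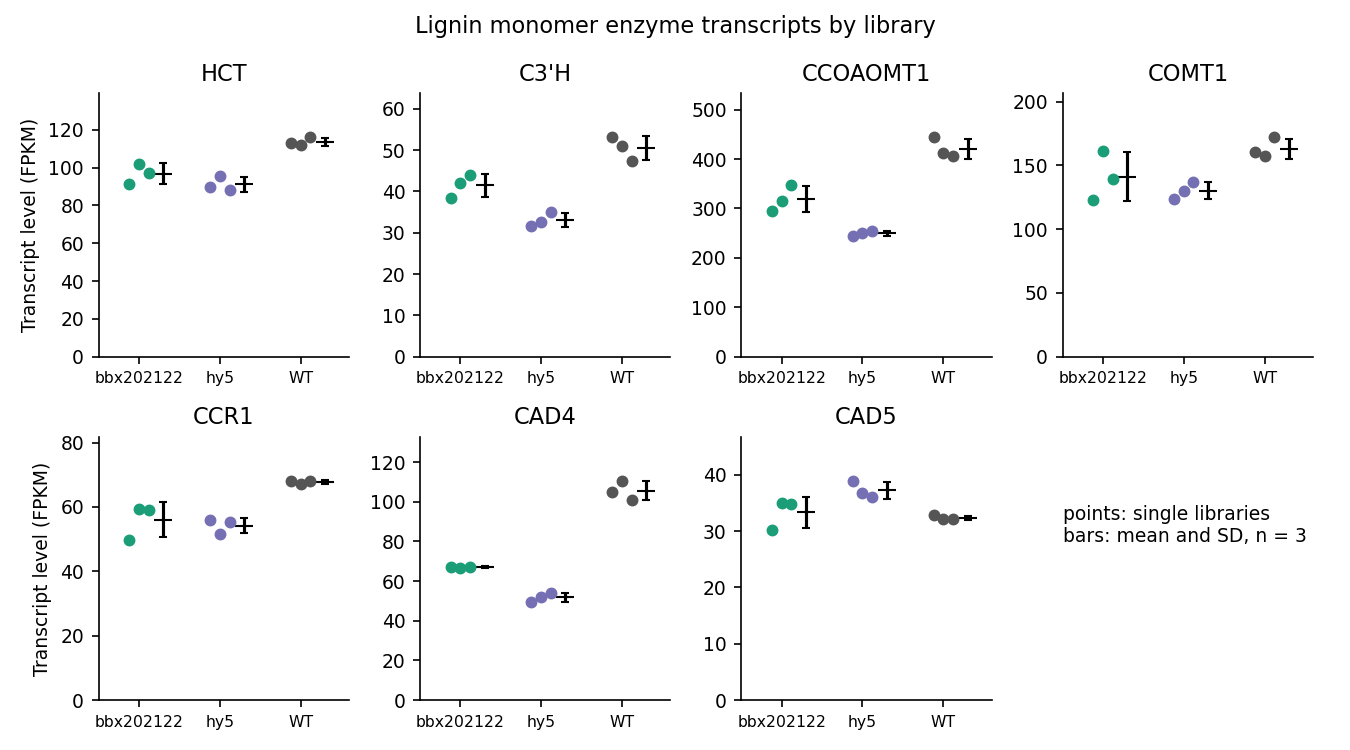
Transcript level in FPKM (vertical axes, from 0) of each of the 7 enzymes in bbx202122, hy5 and WT, with 1 point per library and the mean and SD of 3 libraries beside them. Relative to its WT level CAD4 is lowest in both mutants, with means of 67.2 FPKM in bbx202122, 51.8 FPKM in hy5 and 106 FPKM in WT, and CAD5 alone has its highest values in hy5. The vertical scale differs between genes.

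HCT, the acyltransferase that moves the coumaroyl group onto shikimate, had 91.2, 102 and 97.2 FPKM in the bbx202122 libraries. It had 89.8, 95.6 and 88.1 FPKM in the hy5 libraries, against 113, 112 and 116 FPKM in the WT libraries. Every mutant library lay below every WT library, and the mutants overlapped each other. HCT fell by 0.25 ± 0.06 on the log2 scale in bbx202122 (edgeR adjusted p = 0.011) and by 0.27 ± 0.06 in hy5 (adjusted p = 0.0026). The difference between bbx202122 and hy5 was 0.02 ± 0.06 (adjusted p = 0.85).

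C3'H, which hydroxylates the shikimate ester made by HCT, had 38.5, 42.0 and 44.0 FPKM in bbx202122 and 31.6, 32.6 and 35.1 FPKM in hy5, against 53.1, 51.1 and 47.4 FPKM in WT. The 3 genotypes did not overlap, with hy5 lowest and bbx202122 between hy5 and WT. The log2 fold change was -0.30 ± 0.06 in bbx202122 against WT (edgeR adjusted p = 0.0044) and -0.56 ± 0.06 in hy5 against WT (adjusted p = 6.4e-06). C3'H was higher in bbx202122 than in hy5 by 0.26 ± 0.06 (adjusted p = 0.0084). The overlapping gene AT2G40880 averaged 45.2 ± 1.6 CPM in bbx202122, 42.3 ± 5.3 CPM in hy5 and 45.2 ± 3.5 CPM in WT, and was not called in any comparison.

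CCOAOMT1, which methylates caffeoyl-CoA, was the most abundant of the 7 transcripts in every library. It had 295, 316 and 348 FPKM in bbx202122 and 244, 249.8 and 255 FPKM in hy5, against 444, 413 and 406 FPKM in WT. The 3 genotypes did not overlap, and the order was that of C3'H. CCOAOMT1 fell by 0.41 ± 0.06 on the log2 scale in bbx202122 (edgeR adjusted p = 0.00035) and by 0.70 ± 0.06 in hy5 (adjusted p = 5.7e-07). It was higher in bbx202122 than in hy5 by 0.29 ± 0.06 (adjusted p = 0.004). Its share of the summed FPKM of the 7 genes was 40.4 to 44.0% in bbx202122, 38.5 to 38.7% in hy5 and 43.1 to 45.5% in WT.

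COMT1, the methyltransferase of the route to sinapyl alcohol, had the largest SE of the 7. It had 123, 161 and 139.7 FPKM in bbx202122 and 124, 129.9 and 137 FPKM in hy5, against 160.4, 157 and 172 FPKM in WT. The hy5 libraries lay below the WT libraries, while bbx202122 replicate 2 lay among the WT values. COMT1 fell by 0.27 ± 0.09 on the log2 scale in hy5 (edgeR adjusted p = 0.02), a call lost without WT replicate 3 (-0.23, adjusted p = 0.08), hy5 replicate 1 (-0.25, adjusted p = 0.072) or hy5 replicate 2 (-0.27, adjusted p = 0.058). In bbx202122 against WT it was at -0.22 ± 0.09 (adjusted p = 0.096), and without bbx202122 replicate 2 it was called at -0.35 (adjusted p = 0.0064). The difference between bbx202122 and hy5 was 0.05 ± 0.09 (adjusted p = 0.7).

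CCR1, the first reductase of the route, had 49.8, 59.5 and 59.0 FPKM in bbx202122 and 55.8, 51.6 and 55.2 FPKM in hy5, against 68.1, 67.1 and 68.1 FPKM in WT. Both mutants lay below WT with no overlap, and they overlapped each other. CCR1 fell by 0.28 ± 0.06 on the log2 scale both in bbx202122 (edgeR adjusted p = 0.0054) and in hy5 (adjusted p = 0.0016). The difference between the mutants was 0.01 ± 0.06 (adjusted p = 0.94).

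CAD4, a cinnamyl alcohol dehydrogenase of the last step, differed most from WT among the 7. It had 67.3, 66.8 and 67.3 FPKM in bbx202122 and 49.4, 52.1 and 53.8 FPKM in hy5, against 105, 110.5 and 101 FPKM in WT. No genotypes overlapped, hy5 was lowest, and the bbx202122 libraries lay within 1 FPKM of each other. CAD4 fell by 0.67 ± 0.05 on the log2 scale in bbx202122 (edgeR adjusted p = 1.8e-06) and by 0.98 ± 0.05 in hy5 (adjusted p = 4.6e-09), fitted folds of 0.63 and 0.51. It was higher in bbx202122 than in hy5 by 0.31 ± 0.05 (adjusted p = 0.00088).

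CAD5, the other dehydrogenase, had 30.2, 34.9 and 34.8 FPKM in bbx202122 and 38.9, 36.8 and 36 FPKM in hy5, against 32.8, 32.2 and 32.1 FPKM in WT. The hy5 libraries lay above all others, while bbx202122 had libraries on either side of WT. CAD5 rose by 0.24 ± 0.06 on the log2 scale in hy5 against WT (edgeR adjusted p = 0.0061) and was at 0.04 ± 0.06 in bbx202122 against WT (adjusted p = 0.74). In bbx202122 against hy5 it was lower (-0.20 ± 0.06, adjusted p = 0.028). That last call was lost without bbx202122 replicate 1 (-0.14, adjusted p = 0.12), hy5 replicate 1 (-0.17, adjusted p = 0.11) or hy5 replicate 2 (-0.21, adjusted p = 0.067), with scaling by library size only (-0.14, adjusted p = 0.12) and in limma on FPKM (-0.16, adjusted p = 0.084).

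**Figure D2:**
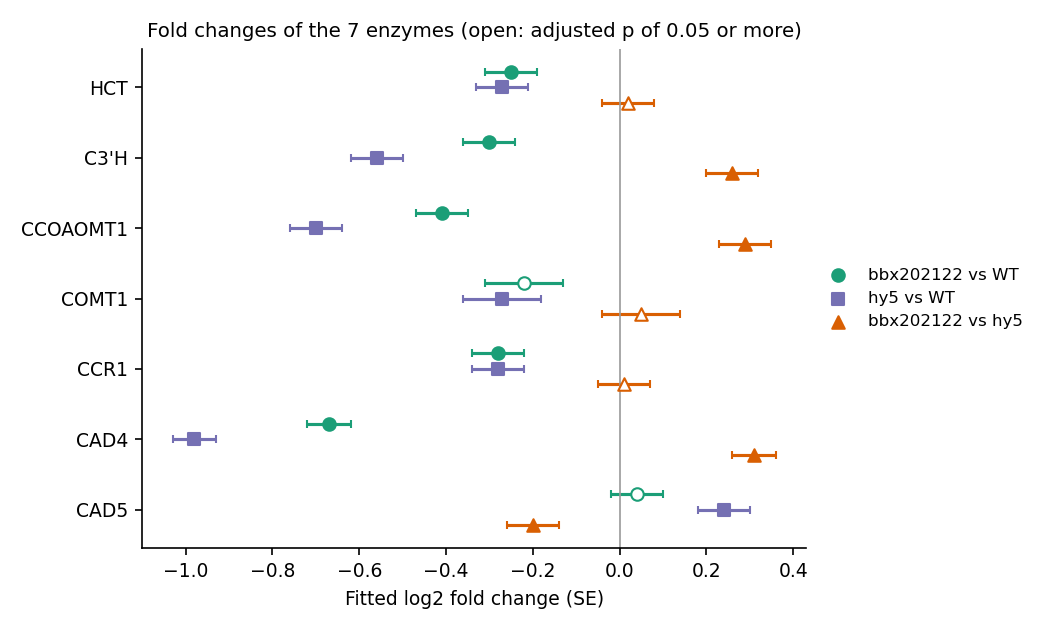
Fitted log2 fold change (horizontal axis) with its SE for each enzyme in bbx202122 against WT (circles), hy5 against WT (squares) and bbx202122 against hy5 (triangles), filled where the adjusted p is under 0.05. Within each comparison with WT CAD4 lies farthest left, at -0.67 in bbx202122 and -0.98 in hy5. CAD5 in hy5 against WT is the filled point to the right of 0 among the comparisons with WT, at 0.24.

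The ratio of CAD4 to CAD5 FPKM was 2.23, 1.92 and 1.93 in bbx202122 and 1.27, 1.42 and 1.49 in hy5, against 3.22, 3.43 and 3.15 in WT. It averaged 2.03 ± 0.18 in bbx202122, 1.39 ± 0.11 in hy5 and 3.27 ± 0.15 in WT (SD, n = 3 each), with no overlap between any pair of genotypes. On the log2 scale the ratio differed by -0.69 in bbx202122 against WT, by -1.23 in hy5 against WT and by 0.54 in bbx202122 against hy5. The two-sided exact permutation p was 0.1 in each of these 3 comparisons, the smallest that 3 libraries against 3 can give. It stayed 0.1 after Benjamini-Hochberg adjustment over these 3, which left out other sums and ratios put to the same test. The 2 genes already differed in how they stood in these libraries, so this p adds no support. CAD4 and CAD5 together reached 100.5 ± 2.6 FPKM in bbx202122 and 89.0 ± 0.8 FPKM in hy5, against 138 ± 5.0 FPKM in WT.

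**Figure D3:**
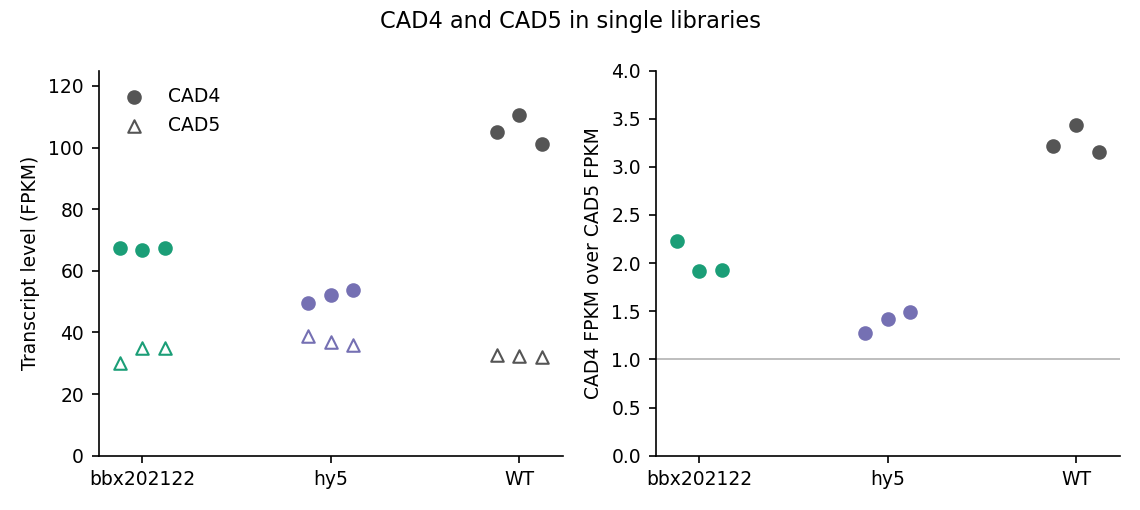
FPKM of CAD4 (filled circles) and CAD5 (open triangles) in each library on the left, and the ratio of CAD4 to CAD5 FPKM in each library on the right, for bbx202122, hy5 and WT. The ratio is 1.92 to 2.23 in bbx202122, 1.27 to 1.49 in hy5 and 3.15 to 3.43 in WT, and the line marks a ratio of 1.

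The genes upstream of the 7 enzymes were also lower in the mutants for the most part. Over all genes tested 16.9% were called in bbx202122 against WT, 39.5% in hy5 against WT and 23.0% in bbx202122 against hy5, which is the background for the count of every gene list. The general phenylpropanoid list held 10 genes for PAL, the entry enzyme, for C4H and 4CL, the next steps, and for the reductases ATR1 and ATR2 that supply electrons to cytochromes P450. In bbx202122 against WT 6 of the 10 fell and 1, ATR1, rose (median log2 fold change -0.31), with ATR1 at 0.20 ± 0.06, PAL1 at -0.62 ± 0.09, C4H at -0.36 ± 0.05, 4CL1 at -0.43 ± 0.07 and 4CL2 at -0.40 ± 0.09. Likewise 6 fell and ATR1 rose in hy5 against WT (median -0.39), with ATR1 at 0.31 ± 0.06, 4CL2 at -0.81 ± 0.09, 4CL5 at -0.76 ± 0.09, PAL1 at -0.70 ± 0.09 and C4H at -0.44 ± 0.05. PAL1 had 126, 172 and 156 CPM in bbx202122 and 128, 151 and 151 CPM in hy5, against 228, 243 and 226 CPM in WT. PAL3 and PAL4 were not called in any comparison. Between the mutants 4CL2 (0.41 ± 0.09) and 4CL5 (0.37 ± 0.10) were higher in bbx202122 and 0 of the 10 were lower. The number called between the mutants was 1 without bbx202122 replicate 2, bbx202122 replicate 3 or hy5 replicate 2.

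Other steps and paralogs of the monolignol route comprised 13 genes, of which 9 passed the filter on low counts. Of these 3 fell and 0 rose in bbx202122 against WT (median -0.17). They were F5H1, the hydroxylase of the sinapyl route (-0.27 ± 0.08), CCR2 (-0.48 ± 0.13) and CCOAOMT7 (-0.33 ± 0.09), and this count was 1 without WT replicate 1 or WT replicate 3 and 0 without bbx202122 replicate 1. For hy5 against WT the counts were 4 lower, the same 3 and CSE, and 3 higher (median -0.37). CCOAOMT7, a methyltransferase paralog, had 5.29 ± 0.13 CPM in hy5, against 13.8 ± 1.3 CPM in WT, and fell by 1.38 ± 0.10. CSE, the esterase that frees caffeate from caffeoyl shikimate, fell by 0.37 ± 0.07. The CAD family genes CAD7 (0.56 ± 0.07) and CAD9 (0.42 ± 0.06) rose in hy5, in the direction of CAD5. Between the mutants 2 of the 9 were higher and 3 lower in bbx202122, with CCOAOMT7 at 1.05 ± 0.11, CSE at 0.20 ± 0.07, CAD7 at -0.48 ± 0.07 and CAD9 at -0.36 ± 0.06. CAD2 was the remaining gene of the 3 higher in hy5 than in WT and of the 3 lower in bbx202122 than in hy5. It had 0 to 0.225 CPM in bbx202122, 1.31 to 1.84 CPM in hy5 and 0.356 to 0.494 CPM in WT.

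Monolignol glucosides, the storage and transport forms, and export formed a list of 7 genes. Of the 7, 2 fell and 0 rose in bbx202122 against WT (median -0.18), UGT72E2 by 0.77 ± 0.11 and UGT72B1 by 0.19 ± 0.05, and 1 was called without bbx202122 replicate 1, bbx202122 replicate 3 or any 1 WT library. For hy5 against WT 4 fell and 1, BGLU46, a monolignol glucosidase gene, rose by 0.50 ± 0.11 (median -0.39). UGT72E2, a monolignol glucosyltransferase, had 14.9, 19.9 and 22.4 CPM in bbx202122 and 10.6, 11.3 and 12.6 CPM in hy5, against 30.7, 34.6 and 32.4 CPM in WT, with no overlap. Its log2 fold change in hy5 was -1.5 ± 0.12, beside UGT72E3 (-1.02 ± 0.14), UGT72E1 (-0.39 ± 0.06) and ABCG29, a p-coumaryl alcohol transporter (-0.40 ± 0.08). Between the mutants 4 were higher and 2 lower in bbx202122, with UGT72E3 at 0.76 ± 0.14, UGT72E2 at 0.73 ± 0.12, UGT72E1 at 0.43 ± 0.06, ABCG29 at 0.27 ± 0.08, UGT72B1 at -0.25 ± 0.05 and BGLU46 at -0.44 ± 0.11.

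Laccases and peroxidases couple monolignols in the wall, and of 10 listed genes 9 were tested. Here 4 rose and 1 fell in bbx202122 against WT (median -0.06), and in hy5 against WT 6 rose and 1 fell (median 0.44). The peroxidase gene PRX71 had 45.1, 53.3 and 63.8 CPM in bbx202122 and 109.9, 111 and 109.8 CPM in hy5, against 37.6, 33.0 and 40.6 CPM in WT, which are increases of 0.55 ± 0.10 and 1.57 ± 0.10. PRX2 went the other way, with 33.9, 41.8 and 44.0 CPM in bbx202122 and 14.6, 17.7 and 21.5 CPM in hy5, against 72.4, 71.3 and 67.3 CPM in WT (-0.82 ± 0.10 and -1.97 ± 0.11). PRX25 was higher in bbx202122 (0.70 ± 0.14) and in hy5 (0.65 ± 0.14), as was the peroxidase gene AT4G33420 (0.34 ± 0.06 and 0.58 ± 0.06), and PRX72 was the fourth that rose in bbx202122 (0.27 ± 0.08). Between the mutants 1, PRX2, was higher (1.15 ± 0.12) and 6 were lower in bbx202122, LAC4, a laccase gene of the xylem, among them at -0.56 ± 0.13.

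Regulators of lignin and secondary walls numbered 20, of which 17 were tested, while NST1, NST2 and SND1, the NAC switches of fibre walls, were at or near 0 in every genotype. In bbx202122 against WT 1 of the 17 rose, MYB7 (0.28 ± 0.08, adjusted p = 0.02), and 0 fell (median -0.01), while VND6, next by adjusted p, was at 0.59 ± 0.20 (adjusted p = 0.06). For hy5 against WT 1 rose, MYB7 again (0.23 ± 0.08), and 4 fell (median -0.04), so that 5 of the 17 were called, a lower share than the 39.5% of all genes. Without WT replicate 1, hy5 replicate 2 or hy5 replicate 3 the number was 3. Those lower in hy5 were MYB63 (-0.91 ± 0.18) and MYB58 (-0.49 ± 0.16), activators of lignin genes through AC elements, the repressor gene MYB4 (-0.39 ± 0.07) and KNAT7 (-0.47 ± 0.08). MYB63 was low throughout, with 1.90, 2.97 and 3.06 CPM in bbx202122. It had 1.81, 2.11 and 1.98 CPM in hy5, against 3.92, 3.72 and 3.45 CPM in WT. MYB58 was low too, with 2.93 to 3.63 CPM in bbx202122, 2.16 to 2.96 CPM in hy5 and 3.45 to 3.88 CPM in WT. Between the mutants KNAT7 (0.58 ± 0.08) and MYB4 (0.26 ± 0.07) were higher and MYB46 (-0.44 ± 0.14) lower in bbx202122, and 1 was called without bbx202122 replicate 2, hy5 replicate 2 or hy5 replicate 3. In bbx202122 against WT no regulator was called without WT replicate 1 or bbx202122 replicate 3, and 2 were called without WT replicate 2.

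A further list held the 4 KFB genes, whose F-box proteins send PAL for degradation, and the Mediator genes MED5a and MED5b, which restrain phenylpropanoid genes. Of these 6 only KFB20 was called in bbx202122 against WT (0.60 ± 0.14, adjusted p = 0.0073), a share near the 16.9% of all genes. KFB01 was at 0.23 ± 0.08 (adjusted p = 0.074), and 2 were called without hy5 replicate 1. In hy5 against WT the 4 KFB genes rose, KFB20 by 1.11 ± 0.14, KFB39 by 1.18 ± 0.17, KFB50 by 0.40 ± 0.08 and KFB01 by 0.38 ± 0.08. MED5a and MED5b were not called. Between the mutants KFB39 (-0.98 ± 0.16) and KFB20 (-0.51 ± 0.13) were lower in bbx202122, and 1 was called without bbx202122 replicate 1 or hy5 replicate 2.

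**Figure D4:**
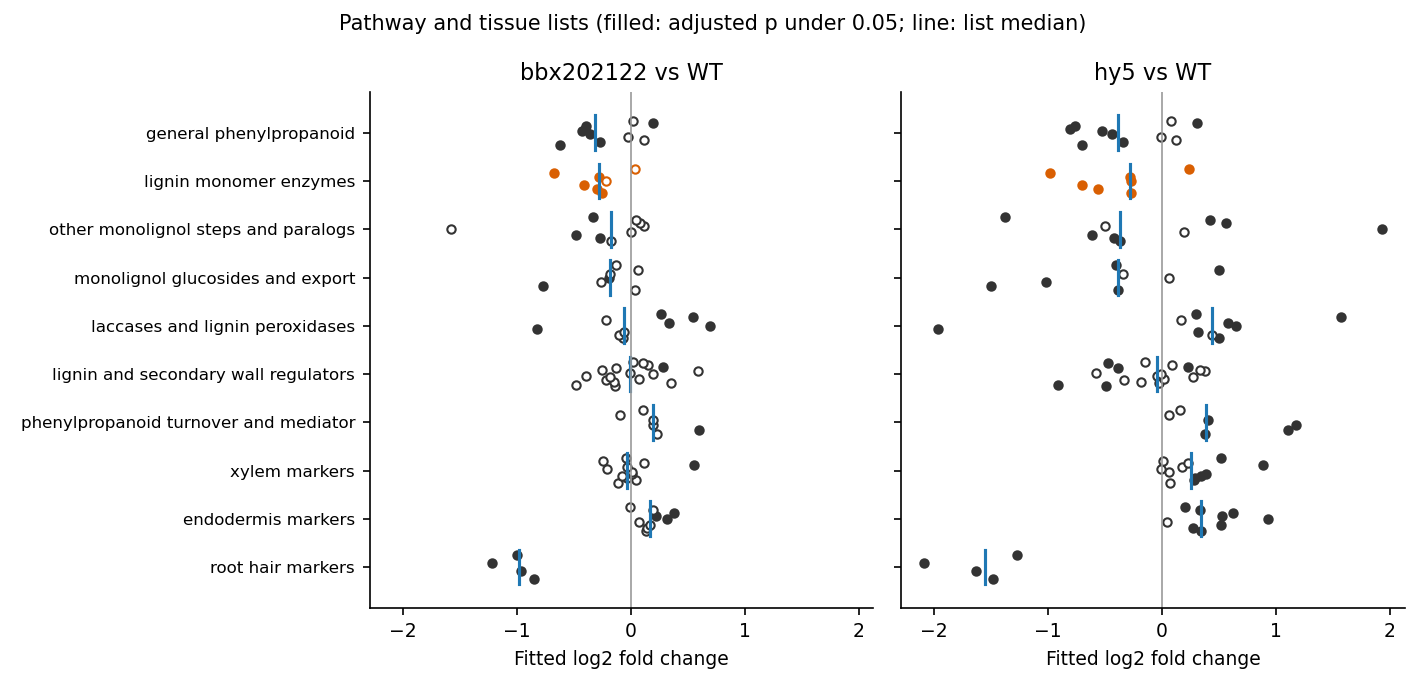
Fitted log2 fold change (horizontal axes) of every tested gene of 10 lists in bbx202122 against WT (left) and hy5 against WT (right), filled where the adjusted p is under 0.05, with a blue line at the list median. The lignin monomer enzymes, in orange, have a median of -0.28 in both, the general phenylpropanoid genes -0.31 and -0.39, and the root hair markers -0.98 and -1.56.

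Sinapate and coumarin synthesis share intermediates with the monolignol route. Of 8 sinapate and coumarin genes 2 rose and 2 fell in bbx202122 against WT (median -0.12), with UGT84A2, the sinapate glucosyltransferase, at -0.62 ± 0.08, AT1G28680 at -0.40 ± 0.06 and REF1, the aldehyde dehydrogenase that makes ferulate and sinapate, at 0.21 ± 0.07. The other gene that rose, AT3G12900, had only 0.495 to 0.637 CPM in bbx202122 and 0.0897 to 0.223 CPM in WT. For hy5 against WT 0 rose and 3 of the 8 fell (median -0.35), a share called near the 39.5% of all genes, with AT1G28680 at -0.57 ± 0.06, F6H1, the hydroxylase of scopoletin synthesis, at -1.23 ± 0.10 and CYP82C4, which hydroxylates fraxetin, at -2.15 ± 0.20. Between the mutants 4 were higher and 1 lower in bbx202122, with CYP82C4 at 2.02 ± 0.20 and UGT84A2 at -0.48 ± 0.08, and 3 were called without hy5 replicate 1. Of 8 genes of methyl donor supply 3 fell in bbx202122 and 0 rose, and in hy5 2 fell and 1, SAHH2, rose (0.24 ± 0.06). The 3 of 8 called in hy5 are a share near the 39.5% of all genes. MS2, a methionine synthase gene, was at -0.52 ± 0.07 in bbx202122 against WT and at -0.82 ± 0.07 in hy5 against WT, and SAM3, for S-adenosylmethionine synthetase, at -0.24 ± 0.06 and -0.35 ± 0.06. The other that fell in bbx202122 was SAM2 (-0.23 ± 0.05). Between the mutants MS2 was higher (0.31 ± 0.07) and SAHH2 (-0.28 ± 0.06) and MS1 (-0.24 ± 0.08) were lower in bbx202122.

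None of the xylem or endodermis markers, from the tissues that hold lignin, was called lower in either mutant against WT. Of 12 xylem markers 1 rose and 0 fell in bbx202122 against WT (median -0.03), and 6 rose and 0 fell in hy5 against WT (median 0.25), where 3 were called without WT replicate 2 or hy5 replicate 2. FRA8, a xylan synthesis gene, was at 0.56 ± 0.07 in bbx202122 against WT and at 0.89 ± 0.07 in hy5 against WT. CESA4 and CESA8, genes of the secondary wall cellulose synthase, were at 0.29 ± 0.09 and 0.39 ± 0.10 in hy5 against WT, while IRX9 in bbx202122 was at -0.21 ± 0.14 (adjusted p = 0.34). The summed level of the xylem list was 276 to 337 CPM in bbx202122, 353 to 382 CPM in hy5 and 255 to 331 CPM in WT, and none of its genes was at 0. Between the mutants 5 xylem markers were lower in bbx202122, MC9 (-0.56 ± 0.11) first by adjusted p, and this count was 3 without bbx202122 replicate 1 and 2 without hy5 replicate 2. The part of tissue content in the levels of the enzymes was not tested.

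Of 9 endodermis markers, Casparian strip genes among them, 3 rose and 0 fell in bbx202122 against WT (median 0.17) and 8 rose and 0 fell in hy5 against WT (median 0.34). CASP5 rose by 0.32 ± 0.08 in bbx202122 and by 0.93 ± 0.08 in hy5, and MYB36, which activates the CASP genes, by 0.38 ± 0.11 and 0.62 ± 0.11. The bbx202122 count was 0 without WT replicate 1, WT replicate 2 or bbx202122 replicate 3, 1 without bbx202122 replicate 2 and 6 without bbx202122 replicate 1, and the hy5 count was 5 without WT replicate 2. The summed level was 336 to 392 CPM in bbx202122, 424 to 440.2 CPM in hy5 and 310.3 to 349 CPM in WT, with no marker at 0. Between the mutants 5 were lower in bbx202122, and 3 without bbx202122 replicate 1 or bbx202122 replicate 3.

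The 4 root hair markers (median log2 fold changes -0.98 and -1.56) fell in both mutants against WT. EXPA18 was at -1.22 ± 0.10 in bbx202122 against WT and at -2.09 ± 0.11 in hy5 against WT, and EXPA7 at -0.96 ± 0.12 and -1.63 ± 0.13. PRP3 was at -1.0 ± 0.13 and -1.27 ± 0.13, and COBL9 at -0.85 ± 0.11 and -1.48 ± 0.12. Their sum was 69.5 to 87.2 CPM in bbx202122, 49.5 to 72.3 CPM in hy5 and 150.5 to 159 CPM in WT, and 3 of the 4 (not PRP3) were higher in bbx202122 than in hy5. The part of root hair content in the levels of the enzymes was not tested. Of 4 mesophyll markers 3 fell in bbx202122 against WT, and in hy5 1 rose and 1, RCA, fell, with sums of 33131 to 36556 CPM in bbx202122, 40102 to 41374 CPM in hy5 and 37861 to 41739.6 CPM in WT. In hy5 1 mesophyll marker was called when any hy5 library, WT replicate 2 or WT replicate 3 was left out, and between the mutants 3 were lower in bbx202122, or 1 without hy5 replicate 2. RCA, the Rubisco activase gene, was at -0.44 ± 0.07 in bbx202122 against WT and at -0.19 ± 0.07 in hy5 against WT, and the light-harvesting gene LHCB1.3 at 0.34 ± 0.07 in hy5 against WT.

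Transcripts of seed storage genes differed between replicates of one genotype. Their sum over 8 genes was 10.2 to 21.2 CPM in bbx202122, 50.9 to 81.5 CPM in hy5 and 14.0 to 56.7 CPM in WT. CRU3 had 1.59, 0.225 and 0.722 CPM in bbx202122 and 26.1, 17.8 and 20.6 CPM in hy5, against 0.668, 0.459 and 20.5 CPM in WT, so WT replicate 3 stood with the hy5 libraries. Among the WT libraries replicate 3 had the highest FPKM of HCT and COMT1 and the lowest of C3'H, CCOAOMT1 and CAD4. For CAD5 the WT libraries were close, and replicate 3 was lowest in FPKM (32.1, against 32.8 and 32.2) but highest in CPM (49.8, against 49.6 and 48.8). Without WT replicate 3 every call of an enzyme against WT was kept except that of COMT1 in hy5. Of 6 storage genes tested 1 (SESA3) fell in bbx202122 against WT, 2 (CRA1 and SESA1) rose in hy5 against WT and 5 were lower in bbx202122 than in hy5. SESA3 had 0 to 0.297 CPM in bbx202122 and 0.183 to 1.35 CPM in WT. In hy5 CRA1 had 21.4 to 36.3 CPM and SESA1 0.189 to 4.15 CPM. Their WT libraries had 8.73 to 23.6 CPM and 0.0917 to 0.583 CPM, so the genotypes overlapped for SESA3, CRA1 and SESA1 alike. The shares called against WT were no higher than the 16.9% (bbx202122) and 39.5% (hy5) of all genes. The count for bbx202122 was 0 without WT replicate 3, bbx202122 replicate 1 or bbx202122 replicate 2 and 2 without WT replicate 2 or bbx202122 replicate 3. The count for hy5 was 4 without WT replicate 3, 1 without WT replicate 1 or WT replicate 2 and 0 without hy5 replicate 1. The source of the seed storage transcripts was not tested, nor was the part of any seed residue in the levels of the enzymes.

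**Figure D5:**
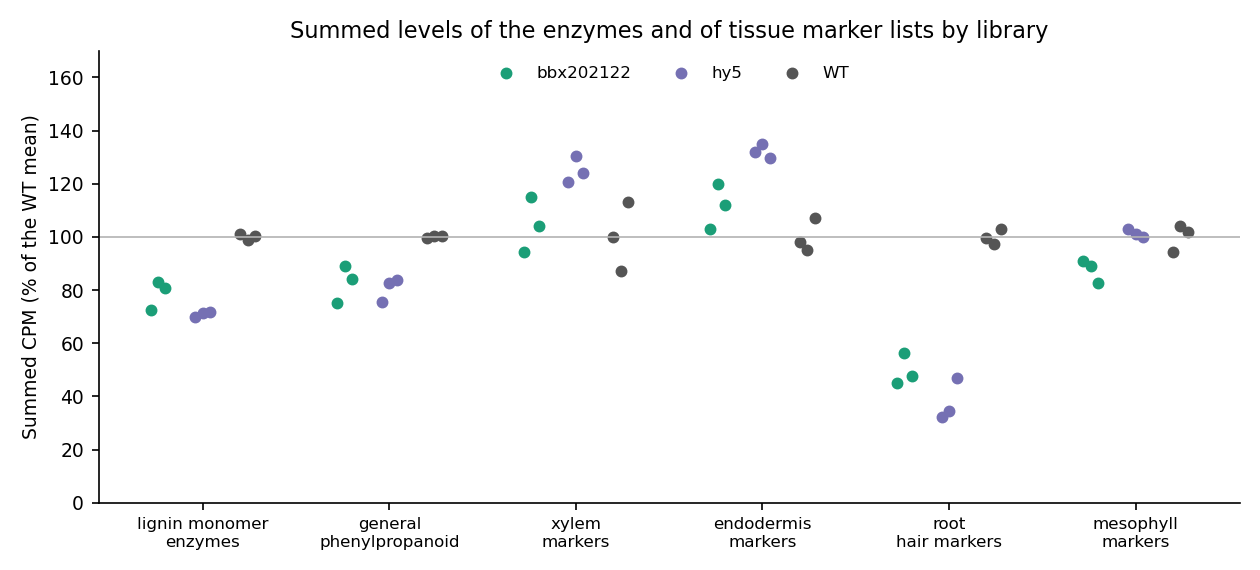
Summed CPM of the 7 enzymes, the general phenylpropanoid genes and 4 tissue marker lists in each library, as a percentage of the WT mean (vertical axis, from 0), for bbx202122, hy5 and WT. The enzymes lie at 72.4 to 83.0% in bbx202122 and 69.7 to 71.9% in hy5, while the endodermis markers lie at 103 to 119.9% and 129.8 to 135% and the root hair markers at 45.0 to 56.5% and 32.1 to 46.8%.

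The genes most like each enzyme in their pattern were sought over the 9 libraries among the 15784 tested genes averaging 5 CPM or more, by the root mean square difference of log2 CPM values centred on each gene's mean. HCT was nearest to SCO1, a chloroplast elongation factor gene (0.047 log2 units), and to AT2G34460 (0.048), and CCR1 ranked 4th for it. CCR1 was nearest to AT5G55180 (0.03) and SK13, a shaggy-like kinase gene (0.036), and HCT ranked 4th in turn. C3'H was nearest to AT2G38010, annotated as a ceramidase (0.035), and to the cytokinin response regulator RR10 (0.05), and CCOAOMT1 ranked 25th. CCOAOMT1 was nearest to AT4G37530, a peroxidase family gene (0.054), and AT1G77500 (0.056), and C3'H ranked 11th.

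COMT1 was nearest to AT3G22620, of the lipid-transfer protein family (0.046), and to PAL2, of the general phenylpropanoid list (0.055). CAD4 was nearest to AT2G35120 (0.046) and ARP1, an RNA-binding protein gene (0.066), and the nearest other enzyme, CCOAOMT1, ranked 77th. AT2G35120 averaged 35.6 CPM in bbx202122, 27.6 CPM in hy5 and 55.5 CPM in WT. CAD5 was nearest to UBQ11, a ubiquitin gene of a family with near-identical copies, so that its reads may be shared (0.032), and ALP, an aleurain-like protease gene (0.032), and the nearest other enzyme, HCT, ranked 11327th of the 15784. These distances share the 9 libraries and are a description.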

How the data were processed

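The authors deposited 1 file per library with expected counts, estimated per gene and unscaled, and with FPKM, normalised to transcript length and library size. Per the submitters' processing notes, HISAT, Bowtie2 2.2.5, RSEM 1.2.12 and build TAIR10 were used, with roles and order not stated. Each file lists genes with an FPKM of at least 0.01; a gene not listed was set to 0. Of 24640 genes, 24436 matched the TAIR10.1 annotation by locus. Rounded expected counts went into edgeR 4.0.16 (R 4.3.3; TMM, filterByExpr, quasi-likelihood F test, two-sided, 9 libraries, 1 mean per genotype, 6 residual degrees of freedom), adjusted by Benjamini-Hochberg over 20751 genes. CPM is TMM-scaled, values are mean ± SD, and fold changes are log2 ± SE. The script was tested on simulated data.

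The members and all lists were chosen with earlier results of these data known. Named are the 7 members, the 4 mutated genes, up to 4 called genes per list and comparison with the smallest adjusted p (2 with the smallest where fewer than 2 were called), and the 2 nearest genes per member; AT1G15960, AT2G40880 and further genes named to complete a count were chosen after their values were seen. AT2G09205, AT1G05213 and AT1G15940 are named for their position alone. Alternatives were other scalings, no filter, a replicate block, only the genotypes compared, each library left out, DESeq2 1.42.0, limma 3.58.1 on log2(FPKM + 0.1), and CPM per kilobase.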

Additional observations from a re-analysis of the deposited data

How the results depend on the processing

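Of the member results against WT, the calls of HCT, C3'H, CCOAOMT1, CCR1 and CAD4 in both mutants, and of CAD5 in hy5, held under all 16 alternatives; those of COMT1 did not. CAD5 in bbx202122 against hy5 was not called with scaling by library size only (-0.14, adjusted p = 0.12) or in limma on FPKM (-0.16, adjusted p = 0.084), and CCR1, uncalled between the mutants, was at -0.00 under median-ratio size factors and under DESeq2; the cause was not tested. Leaving out each library in turn, 2236 to 3482 genes were called in bbx202122 against WT (3504 with all; 2236 without WT replicate 2), 6649 to 8439 in hy5 against WT (8187) and 3332 to 4867 in bbx202122 against hy5 (4773). The members called were then 5 to 6, 6 to 7 and 3 to 4. Log2 fold changes ranged over -0.35 to -0.13 (COMT1) and -0.01 to 0.10 (CAD5) in bbx202122 against WT, over -0.31 to -0.23 (COMT1) in hy5 against WT, and over -0.25 to -0.14 (CAD5), -0.04 to 0.06 (HCT), -0.07 to 0.15 (COMT1) and -0.03 to 0.07 (CCR1) in bbx202122 against hy5. DESeq2 called 2762, 6937 and 3825 genes in the 3 comparisons. Replicate numbers were not taken to pair the samples: deviations of same-numbered libraries correlated at -0.114 to 0.237, against -0.181 to 0.144 for others, and each library was nearest to its own number in 6 of 6 cases between bbx202122 and hy5 and in 0 of 6 in each comparison with WT. With a replicate block 3143, 7884 and 4445 genes were called, and 5, 7 and 4 of the 7 enzymes, with no enzyme's call changed. List counts were recomputed under other settings after the data were seen. With DESeq2 0, 3 and 1 regulators were called in the 3 comparisons, and 0 seed storage markers in each mutant against WT. In bbx202122 against WT 2 seed storage markers were called with no filter and 0 with the replicate block or only the compared genotypes, which also left 1 glucoside and export gene. In hy5 against WT 5 methyl donor genes were called with scaling by library size only and in limma on FPKM, where 3 xylem and 1 mesophyll markers were called. In bbx202122 against hy5 both these settings called 3 endodermis markers, and limma 2 xylem markers, 1 mesophyll marker and 1 gene of the KFB and Mediator list. The enzymes' depth, 1049 or more counts per library, is not low, and SEs of 0.05 to 0.09 limit what can be seen on the log2 scale.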
